A study of Caenorhabditis elegans with 6 samples.

Results

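The genes described here were listed for the degradative lysosome and read in the coelomocytes of Caenorhabditis elegans: 22 genes for hydrolases, 10 for lysosomal membrane proteins and 21 for subunits of the vacuolar proton pump (V-ATPase). The list also holds aman-2, for a Golgi mannosidase, and the pump genes vha-5 and vha-6, known from other tissues. Members were chosen by public gene name, with no measured value in the rule. All 53 were found among the 21882 genes of the deposited table, and 49 had a count in at least 1 library. In Repro_CC coelomocytes, which express the transcription factor CHE-1 from a transgene, the mannosidase gene aman-1 and the lysosomal membrane gene lmp-1 fell and the cholesterol transporter gene ncr-1 rose, while no other member passed the test.

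Coelomocytes are scavenger cells that take up material from the body cavity by endocytosis and break it down in large lysosomes. The V-ATPase pumps protons into the lysosome with a cytosolic V1 sector that hydrolyses ATP and a membrane V0 sector that carries the protons, and the acid hydrolases work at the pH that it sets. Membrane proteins protect the lysosomal membrane and export the products of digestion, such as amino acids and cholesterol.

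The Repro_CC group (strain BAT2088) carried barIs115, in which a coelomocyte promoter named coel or unc-122 in the labels drives che-1 with a 2xFLAG tag and an unc-54 UTR, together with a myo-2 promoter mCherry marker. The WT_CC group (strain BAT2087) lacked barIs115. Both groups carried the unc-122 promoter GFP reporter barIs177 and the temperature-sensitive allele glp-4(bn2), which leaves animals raised at the restrictive temperature without a germline, so WT_CC is not an unmodified wild type. GFP-positive cells were sorted from dissociated L3 larvae into 3 libraries a group, each group is 1 strain, and the labels leave unsaid whether the libraries of a group are separate cultures. The p-values therefore measure the spread between these libraries, which may be technical.

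The Repro_CC libraries held 21353072 to 57860556 counts and the WT_CC libraries 23062805 to 58325279, and each has a number here that only names it and pairs nothing. The shallowest were Repro_CC library 1 and WT_CC library 2. The targeted gene che-1 had 10744, 50917 and 42227 counts in Repro_CC libraries, against 3, 0 and 1 in WT_CC libraries. Counts of the 8 coelomocyte markers were found in every library of both groups, and their summed level was 4650 to 6470 CPM (counts scaled to library size) in Repro_CC and 12900 to 16500 CPM in WT_CC libraries, with 4 of the 8 called lower (cup-4, lgc-26, cubn-1 and rme-8). The marker unc-122, whose promoter drives the GFP reporter used for sorting, overlapped between the groups. It had 1298, 1212 and 1570 CPM in Repro_CC and 1805, 1228 and 1972 CPM in WT_CC libraries (log2 fold change -0.29, adjusted p = 0.741 in edgeR). Nor were ceh-34, eya-1 and cup-5 called. Markers of body wall muscle, a tissue other than the sorted one, were also abundant, at 5800 to 7120 CPM summed over 10 genes in Repro_CC and 3630 to 4640 CPM in WT_CC libraries, although the muscle regulator hlh-1 had a count in only 2 of the 6 libraries. Much of this sum came from the gene act-4, with 3529, 3336 and 3016 CPM in Repro_CC and 3122, 2406 and 2615 CPM in WT_CC libraries. Intestine markers summed to 69.4 to 213 CPM in Repro_CC and 70.8 to 87.1 CPM in WT_CC libraries over 10 genes, with the gut regulator elt-2 at most at 2.81 CPM and elt-7 at 0 in 5 libraries. The gene act-5 held much of the intestine sum, with 52.43, 147.6 and 132.8 CPM in Repro_CC and 42.16, 53.15 and 63.33 CPM in WT_CC libraries. None of the intestine, hypodermis, excretory canal or pharynx markers was called in edgeR. In such sorted bulk samples, fewer cells of a type and less RNA per cell cannot be told apart.

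The comparison asks which lysosomal genes differ between coelomocytes with and without CHE-1. Levels are CPM scaled with TMM factors, which correct for library composition, and comparisons between genes use CPM per kilobase of annotated exon (CPM per kb). A gene was called when edgeR's quasi-likelihood test gave it a Benjamini-Hochberg adjusted p under 0.05 over all 9112 genes with enough counts to be tested. Of the 53 members, 42 were tested. Of these 1 was called higher and 2 lower in Repro_CC, where 3.37% of all tested genes were called higher and 1.69% lower. DESeq2 called 2 higher and 6 lower among the same number of members with an adjusted p, against 7.08% and 4.26% of all genes with one. Counted without a test, 5 tested members had all 3 Repro_CC libraries above all 3 WT_CC libraries and 13 had all 3 below, against 13% and 10.3% of all tested genes.

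Among the hydrolases, aman-1 stood apart. This gene encodes the lysosomal alpha-mannosidase, which trims mannose from glycoproteins, and lies on chromosome X from 4733095 to 4738592 (WBGene00018877, build WBcel235). It had 7.84, 8.20 and 38.1 CPM in the Repro_CC libraries, against 6197, 3766 and 5514 CPM in the WT_CC libraries. The groups lay far apart, and Repro_CC library 3 was the highest of its group. The fitted level fell by 8.16 on the log2 scale (SE 0.93, adjusted p = 0.00672 in edgeR), which is 285-fold lower in Repro_CC. Per kilobase, aman-1 ranked 6081 of 21714 genes in Repro_CC and 99 in WT_CC. Its call held in 10 of 14 alternative settings, among them DESeq2 (adjusted p = 1.96e-21) and limma-voom (4.77e-11), and was lost in 4. In edgeR it was lost without Repro_CC library 1 (adjusted p = 0.0696), Repro_CC library 2 (0.0562) or WT_CC library 1 (0.0856). It was also lost in edgeR with a block for adjacent library names (0.0903). The log2 fold changes were -9.33 to -7.80 over all alternatives.

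The most abundant hydrolase gene besides aman-1 was hex-1, for beta-hexosaminidase, which removes terminal N-acetylhexosamines from glycoconjugates. It was at 3088, 2076 and 3200 CPM in Repro_CC libraries, against 2510, 2146 and 2889 CPM in WT_CC libraries. The groups overlapped (log2 fold change 0.15, SE 0.20, adjusted p = 0.998 in edgeR). Per kilobase hex-1 ranked 98 in Repro_CC and 116 in WT_CC. The pair aman-1 and hex-1 made up 86.4%, 61.4% and 79.8% of the summed CPM of the 22 hydrolases in Repro_CC libraries and 95.6%, 93.0% and 94.7% in WT_CC libraries. The share of aman-1 alone was at most 0.938% in Repro_CC and at least 59.3% in WT_CC.

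The homologous mannosidase genes were higher on average in Repro_CC, unlike aman-1, and were not called. The gene aman-2, for the Golgi alpha-mannosidase that acts on maturing N-glycans, had 170.3, 155.3 and 104.1 CPM in Repro_CC libraries, against 93.7, 36.5 and 85.5 CPM in WT_CC libraries. All Repro_CC values lay above the WT_CC values, and the gene missed the threshold (log2 fold change 0.99, SE 0.37, adjusted p = 0.222 in edgeR). The gene aman-3 had 28.4, 12.7 and 26.4 CPM in Repro_CC and 8.93, 0 and 4.43 CPM in WT_CC libraries, again without overlap and without a call (adjusted p = 0.698 in edgeR). Per kilobase aman-3 was at 6.83 CPM per kb in Repro_CC, close to aman-1 there at 6.07, and was low in WT_CC as well.

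All 7 protease genes were tested and none was called in edgeR. An unadjusted p under 0.05 was found for 2, both higher in Repro_CC, and for 8.53% of all tested genes in that direction. Their summed level was 266.8, 1116 and 674.3 CPM in Repro_CC libraries, against 263.6, 405.3 and 364.3 CPM in WT_CC libraries. Library 1 of Repro_CC thus lay at the WT_CC level and the others above it. The gene asp-1, for a cathepsin D-like aspartyl protease of the intestine, was the most abundant of them, with 143.0, 691.3 and 456.9 CPM in Repro_CC and 164.3, 232.7 and 216.8 CPM in WT_CC libraries. The groups overlapped (log2 fold change 1.07, SE 0.51, adjusted p = 0.444 in edgeR), and edgeR called asp-1 higher once Repro_CC library 1 was left out. The intestine markers were lowest in the same library, at 69.4 CPM against 213.3 and 208.0 CPM in Repro_CC libraries 2 and 3, and none of the 7 tested intestine markers was called. Much of these marker sums was act-5, and the part of the intestine in the protease values was not tested.

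The gene asp-3, for a cathepsin D-like protease with a known role in necrotic neuron death, was at 45.1, 153.9 and 77.0 CPM in Repro_CC libraries, against 19.9, 25.1 and 44.1 CPM in WT_CC libraries. The groups did not overlap, although the lowest Repro_CC and the highest WT_CC value were almost equal. The gene missed the threshold in edgeR (log2 fold change 1.63, SE 0.49, adjusted p = 0.102), while DESeq2 (0.0377) and limma-voom (0.00795) called asp-3 higher. The cathepsin L gene cpl-1, needed for yolk and protein turnover, had 42.4, 82.7 and 61.0 CPM in Repro_CC and 24.4, 37.2 and 32.4 CPM in WT_CC libraries, without overlap and without a call (adjusted p = 0.259 in edgeR).

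The remaining proteases overlapped between the groups. The aspartyl protease gene asp-2 had 54.1 ± 27.8 CPM in Repro_CC and 30.7 ± 2.83 CPM in WT_CC (SD, n = 3 each), and asp-4 had 23.7 ± 25.2 CPM in Repro_CC and 29.6 ± 20.4 CPM in WT_CC. The cathepsin B-like gene cpr-6 had 0, 36.3 and 7.76 CPM in Repro_CC and 3.24, 2.48 and 5.85 CPM in WT_CC libraries. The cathepsin Z gene cpz-1 ranged from 0.248 to 22.4 CPM in Repro_CC and from 4.97 to 25.8 CPM in WT_CC. The libraries of 1 group thus differed widely for these low genes, and their adjusted p was 0.572 to 0.998 in edgeR.

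Nucleases, lipases, sphingomyelinases and the other glycosidases were low and uneven between libraries in both groups. The acid DNase II gene nuc-1, which digests DNA of dead cells, had 279, 163 and 8 counts in Repro_CC and 0, 0 and 118 counts in WT_CC libraries. The glucosylceramidase gene gba-3 had 159, 257 and 0 counts in Repro_CC, against 1162, 0 and 500 in WT_CC, and the alpha-galactosidase family gene gana-1 had 0, 802 and 211 counts in Repro_CC, against 159, 0 and 120 in WT_CC. These genes were tested and not called, with adjusted p of 0.984, 0.998 and 0.998 in edgeR.

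Several of these genes were seen in single libraries only. The lipase genes lipl-1, lipl-2, lipl-3 and lipl-4, of a family that releases fatty acids from lysosomal lipids, had counts in 1 library each. These were 353 counts in Repro_CC library 3 for lipl-1, 37 in WT_CC library 3 for lipl-2, and 4 and 152 in WT_CC library 1 for lipl-3 and lipl-4. The palmitoyl thioesterase gene ppt-1 had 300 counts, all in WT_CC library 1. Of the acid sphingomyelinase genes, which cleave sphingomyelin to ceramide, asm-1 had 198 counts in 1 Repro_CC library and 175 and 22 in 2 WT_CC libraries, asm-2 had 280 counts in 1 Repro_CC and 43 in 1 WT_CC library, and asm-3 had none. No count in a library still allows up to 3, which is a mean of 0.0803 CPM in Repro_CC and 0.0802 CPM in WT_CC libraries, for counting error only. Of this set asm-1 was tested (adjusted p = 0.999 in edgeR).

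**Figure D1:**
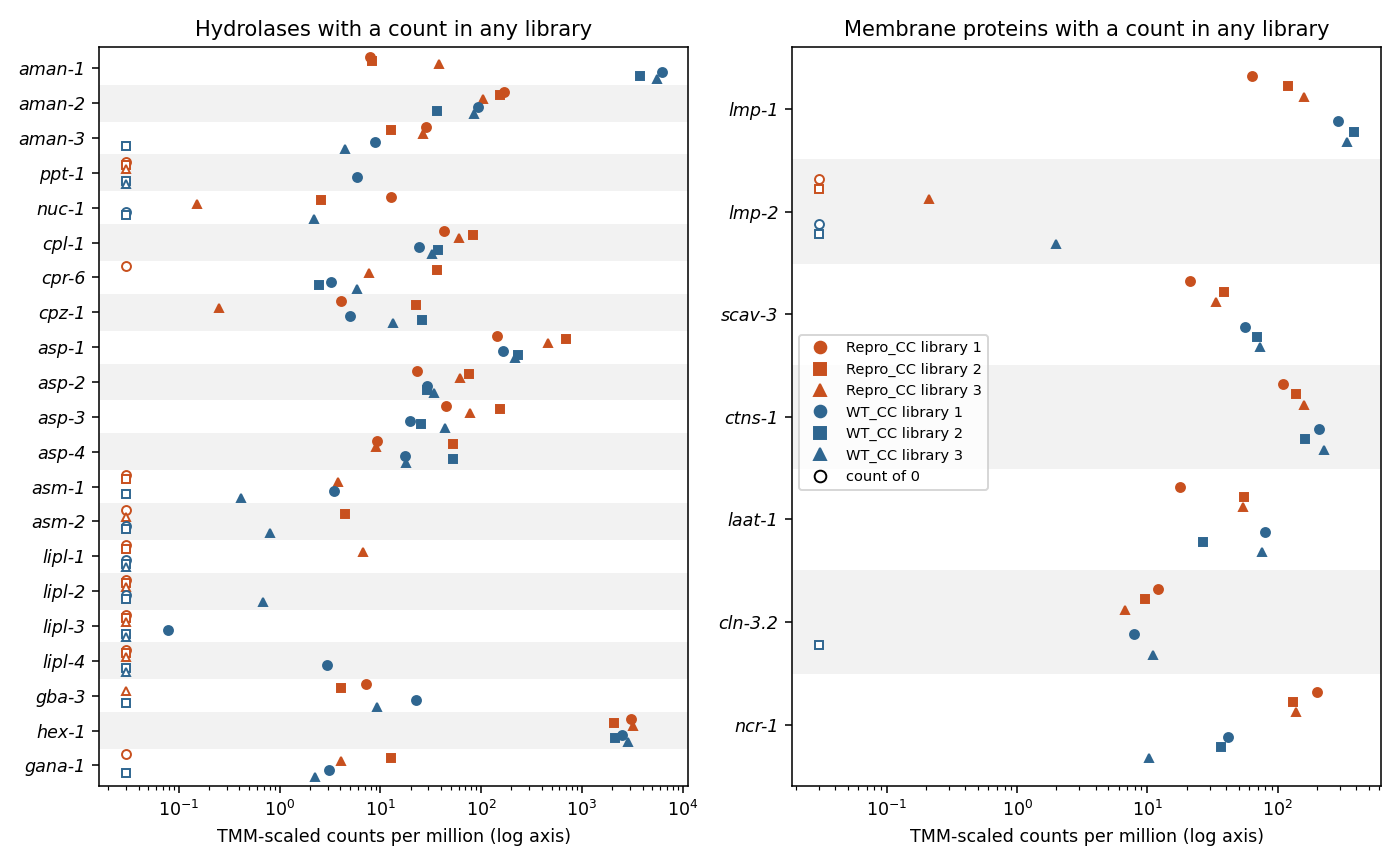
Levels of the hydrolase genes (left) and lysosomal membrane protein genes (right) with a count in any library, as TMM-scaled CPM on a log axis, with 1 point per library, Repro_CC above WT_CC in each row and open points for a count of 0. The points of aman-1 lie at 7.84 to 38.1 CPM in Repro_CC and 3766 to 6197 CPM in WT_CC, those of hex-1 overlap, and ncr-1 and lmp-1 separate in opposite directions.

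The lysosomal membrane proteins split in direction. Of the 10 genes 6 were tested, 1 was called higher, 1 lower and 4 were not called. Of all tested genes 3.37% were called higher and 1.69% lower in edgeR. The gene lmp-1 encodes a LAMP-like glycoprotein of the lysosomal membrane that is used as a lysosome marker, and lies on chromosome X from 6376459 to 6377684 (WBGene00003053). It had 63.5, 119.4 and 158.3 CPM in the Repro_CC libraries, against 291.3, 387.3 and 339.0 CPM in the WT_CC libraries. The groups did not overlap, and lmp-1 fell by 1.58 on the log2 scale (SE 0.32, adjusted p = 0.0131 in edgeR), 2.98-fold lower in Repro_CC. The call held in all 14 alternative settings, with an adjusted p of at most 0.0462 in each of them. Its paralog lmp-2 had 11 counts in Repro_CC library 3 and 107 in WT_CC library 3, with none elsewhere, and was not tested.

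The gene ncr-1 moved the other way. It is a homologue of human NPC1, which moves cholesterol out of the lysosome, and lies on chromosome X from 4472244 to 4488857 (WBGene00003561). It had 201.7, 130.0 and 138.1 CPM in the Repro_CC libraries, against 41.2, 36.5 and 10.2 CPM in the WT_CC libraries. All Repro_CC values were above all WT_CC values, and ncr-1 rose by 2.42 on the log2 scale (SE 0.49, adjusted p = 0.0144 in edgeR), 5.35-fold higher in Repro_CC. With the shallowest Repro_CC and WT_CC libraries left out, and so 2 libraries a group, the call was lost (adjusted p = 0.109 in edgeR). The second NPC1 gene, ncr-2, had no count in any library.

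The transporters and scav-3 were lower on average in Repro_CC and were not called. The gene scav-3 encodes a relative of LIMP-2, a CD36 family protein that keeps the lysosomal membrane intact, and had 21.2, 38.7 and 33.4 CPM in Repro_CC, against 55.9, 69.7 and 73.3 CPM in WT_CC libraries. The cystine exporter gene ctns-1 had 110.7, 138.6 and 160.3 CPM in Repro_CC and 206.8, 161.3 and 227.1 CPM in WT_CC libraries. Neither gene overlapped between the groups, with log2 fold changes of -1.09 (SE 0.38, adjusted p = 0.166) and -0.54 (SE 0.25, adjusted p = 0.363) in edgeR. For ctns-1 the highest Repro_CC value (160.3 CPM) and the lowest WT_CC value (161.3 CPM) were almost equal. Of all tested genes 10.3% lay apart in this direction. The lysine and arginine exporter gene laat-1 overlapped, at 17.7, 55.5 and 54.3 CPM in Repro_CC, against 80.4, 26.7 and 76.4 CPM in WT_CC. The gene cln-3.2, of the family of the Batten disease protein CLN3, was at 9.45 ± 2.74 CPM in Repro_CC and 6.28 ± 5.67 CPM in WT_CC (SD, n = 3 each), and cln-3.1 and cln-3.3 had no count.

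In WT_CC the order of membrane genes per kilobase was lmp-1 (325 ± 46.0 CPM per kb), ctns-1 (142 ± 24.1), laat-1 (50.7 ± 24.8) and scav-3 (37.9 ± 5.26), where laat-1 and scav-3 lay within their spread of each other. In Repro_CC the mean levels were 109 ± 45.7 CPM per kb for lmp-1, 97.7 ± 17.8 for ctns-1, 35.2 ± 17.8 for laat-1, 32.7 ± 8.20 for ncr-1 and 17.8 ± 5.13 for scav-3 (SD, n = 3). There lmp-1 and ctns-1 were within their spread of each other, as were laat-1 and ncr-1, whereas ncr-1 was at 6.12 ± 3.49 CPM per kb in WT_CC.

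The V-ATPase genes were abundant in both groups. All 21 were tested, and edgeR called 0 of them, although 6 had an unadjusted p under 0.05, all lower in Repro_CC, as did 5.71% of all tested genes in that direction. DESeq2 and limma-voom each called the same 4 genes lower and none higher. Over the whole table DESeq2 called 4.26% of genes with an adjusted p lower and 7.08% higher. With limma-voom these were 294 and 520 of 9112 genes. The log2 fold change was below 0 for 18 of the 21, against 4388 of all 9112 tested genes. Its median was -0.36, against 0.04 for all tested genes. When only library totals were used for scaling, the median of all tested genes moved to 0.21 and 15 of 21 V-ATPase genes stayed below 0, at a median 0.40 below that of all genes with either scaling. In 9 of the 21 every Repro_CC library lay below every WT_CC library, against 10.3% of all tested genes, and in 0 above, against 13%.

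The catalytic V1 sector held most of those 9 genes. The gene vha-13, for the ATP-hydrolysing A subunit (chromosome V, 14351709 to 14354422), had 538.2, 642.5 and 730.3 CPM in Repro_CC libraries, against 867.3, 1096 and 1119 CPM in WT_CC libraries. Its B subunit partner vha-12 (chromosome X, 4191094 to 4193144) had 258.1, 426.8 and 430.6 CPM in Repro_CC, against 567.3, 679.0 and 798.9 CPM in WT_CC. Neither overlapped, and the log2 fold changes were -0.69 (SE 0.19) and -0.87 (SE 0.24), with adjusted p of 0.0760 and 0.0712 in edgeR and 0.00327 and 0.00525 in DESeq2.

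The stalk subunits of V1 had smaller or similar differences. The E subunit gene vha-8 had 210.6, 282.6 and 294.0 CPM in Repro_CC libraries, against 374.9, 455.8 and 469.2 CPM in WT_CC libraries, without overlap (log2 fold change -0.72, SE 0.21, adjusted p = 0.0923 in edgeR and 0.00709 in DESeq2). The gene vha-10 for subunit G had 131 ± 12.6 CPM in Repro_CC and 198 ± 36.05 CPM in WT_CC, and vha-11 for subunit C had 142 ± 20.1 CPM in Repro_CC and 184 ± 26.1 CPM in WT_CC (SD, n = 3 each). Neither of these overlapped between the groups, nor was either called by edgeR or DESeq2. Subunits D, F and H overlapped. The D gene vha-14 was at 155 ± 46.9 CPM in Repro_CC and 194 ± 50.3 CPM in WT_CC, the F gene vha-9 at 93.1 ± 41.4 CPM in Repro_CC and 163 ± 47.7 CPM in WT_CC, and the H gene vha-15 at 168 ± 58.2 CPM in Repro_CC and 208 ± 78.4 CPM in WT_CC (SD, n = 3 each). For subunit H the second gene, vha-18, had 171, 353 and 0 counts in Repro_CC and 15, 0 and 74 counts in WT_CC libraries. Repro_CC library 1 was the lowest of its group for 7 of the 9 V1 genes, against 41.0% of all tested genes.

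In the V0 sector no gene fell as far as vha-13, vha-12 or vha-8. The c subunits form the proton-carrying ring, and vha-2 was their most abundant gene, with 465.4, 506.8 and 485.8 CPM in Repro_CC libraries, against 575.2, 748.9 and 670.7 CPM in WT_CC libraries. The groups did not overlap (log2 fold change -0.45, SE 0.18, adjusted p = 0.269 in edgeR). The gene vha-3, which is known to encode the same protein as vha-2, had 78.4, 114.7 and 77.9 CPM in Repro_CC and 67.3, 115.5 and 117.9 CPM in WT_CC libraries, and overlapped. How the upstream estimate divided reads between such copies is unknown here, so both levels are uncertain, and 219 bases of vha-2 exon are also annotated as exon of R10E11.6 on the same strand. The third c gene, vha-1, had 121.5, 85.7 and 100.4 CPM in Repro_CC and 122.1, 193.1 and 147.8 CPM in WT_CC libraries, apart by under 1 CPM at the closest pair.

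The remaining V0 subunits were not called either. The gene vha-4 for the c'' subunit had 139 ± 22.9 CPM in Repro_CC and 178 ± 37.3 CPM in WT_CC, vha-16 for subunit d had 366 ± 19.4 CPM in Repro_CC and 422 ± 85.6 CPM in WT_CC, and vha-17 for subunit e had 136 ± 26.4 CPM in Repro_CC and 169 ± 8.39 CPM in WT_CC (SD, n = 3 each). The groups overlapped for vha-4 and vha-16 and lay just apart for vha-17. Their log2 fold changes were -0.36, -0.20 and -0.31 with adjusted p of 0.749, 0.941 and 0.808 in edgeR. The V0 sum was 2032, 1893 and 2044 CPM in Repro_CC libraries, against 2042, 2250 and 2562 CPM in WT_CC libraries, and overlapped.

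The a subunit is encoded by 4 genes that differ in tissue and place in the cell, and most a subunit transcripts here were of unc-32, the gene best known from neurons. It had 679.6, 531.9 and 642.6 CPM in Repro_CC libraries, against 548.8, 445.4 and 704.1 CPM in WT_CC libraries, and the groups overlapped (log2 fold change 0.13, SE 0.22, adjusted p = 0.998 in edgeR). Per kilobase, unc-32 made up 98.0%, 82.5% and 90.4% of the a subunit transcripts in Repro_CC libraries and 92.7%, 94.6% and 95% in WT_CC libraries. The intestinal a subunit gene vha-6 had 0, 74.5 and 28.9 CPM in Repro_CC and 6.07, 18.5 and 11.4 CPM in WT_CC libraries. It was the next in share in Repro_CC libraries 2 and 3, at 15.5% and 5.46%, where intestine markers summed to 213.3 and 208 CPM. Its share was 1.38%, 5.27% and 2.07% in WT_CC libraries, where those markers summed to 87.07, 70.81 and 86.45 CPM. Much of these marker sums was act-5, and the part of the intestine in the vha-6 values was not tested. The hypodermal and excretory a subunit gene vha-5 was at 8.89 ± 2.08 CPM in Repro_CC and 9.15 ± 8.41 CPM in WT_CC, and vha-7 at 8.34 ± 9.84 CPM in Repro_CC and 8.78 ± 7.71 CPM in WT_CC (SD, n = 3 each).

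Both accessory subunit genes were lower on average in Repro_CC. The gene vha-19, a homologue of Ac45, which assists the pump in secretory and endocytic membranes, had 155.1, 193.3 and 191.3 CPM in Repro_CC libraries, against 364.3, 221.2 and 366.1 CPM in WT_CC libraries. The groups did not overlap, and vha-19 missed the threshold in edgeR (log2 fold change -0.82, SE 0.25, adjusted p = 0.107) but passed in DESeq2 (0.0143) and limma-voom (0.0227). On the opposite strand otub-4 shares 99 bases of exon with vha-19, and the labels do not state whether counting used the strand. The gene vha-20, a homologue of the prorenin receptor, overlapped at 191 ± 24.9 CPM in Repro_CC and 248 ± 35.2 CPM in WT_CC (SD, n = 3 each).

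**Figure D2:**
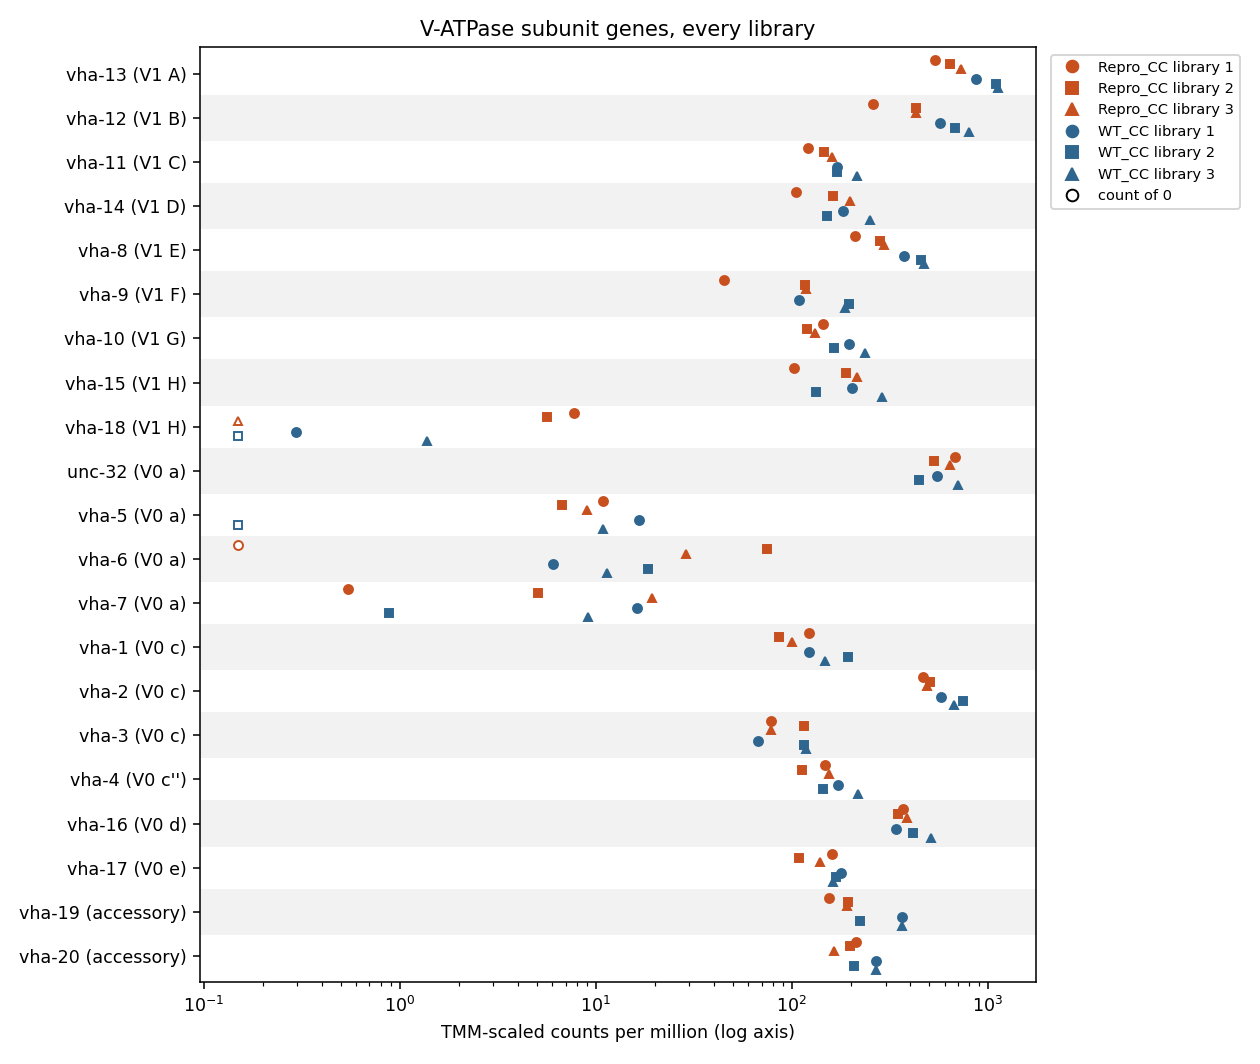
Levels of the 21 V-ATPase genes as TMM-scaled CPM on a log axis, with the subunit in brackets, 1 point per library, Repro_CC above WT_CC in each row and open points for a count of 0. The V1 genes vha-13, vha-12 and vha-8 separate between the groups, unc-32 overlaps, and vha-5, vha-6, vha-7 and vha-18 are scattered at low levels.

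The 2 sectors were set side by side after their values had been seen. The V1 sum was 1532, 2089 and 2275 CPM in Repro_CC libraries, against 2669, 3041 and 3564 CPM in WT_CC libraries. Divided by the V0 sum of the same library, this gave 0.754, 1.1 and 1.11 in Repro_CC and 1.31, 1.35 and 1.39 in WT_CC. The ratios did not overlap, and with levels per kilobase they were 0.62, 0.908 and 0.939 in Repro_CC and 1.02, 0.962 and 1.11 in WT_CC, closer but still apart. The difference carries no test here, since a score over chosen genes gets none. For the 9 V1 genes the median log2 fold change was -0.60, and for the 10 V0 genes it was -0.18. Both lists hold low genes with wide errors. In V0 these were vha-6 (1.52, SE 1.80), vha-5 (-0.04, SE 1.84) and vha-7 (-0.07, SE 1.71), and in V1 vha-18 (2.99, SE 3.31). The V1 genes vha-11, vha-14 and vha-15 were at -0.38, -0.32 and -0.31, much as vha-4 (-0.36) and vha-17 (-0.31) in V0. Without the shallowest library of either group these medians were -0.40 and -0.34. The V1 and V0 medians were -0.71 and -0.41 without WT_CC library 2, and -0.66 and -0.36 without WT_CC library 1. They were -0.59 and -0.29 without Repro_CC library 3, and -0.48 and -0.08 without WT_CC library 3. The V1 median thus stayed below the V0 median in each of these settings.

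Per kilobase, vha-2 led the subunits in both groups. In WT_CC vha-2 was highest at 690 ± 90.3 CPM per kb, followed by vha-13 at 440 ± 59.7, vha-8 at 382 ± 45.0 and vha-12 at 358 ± 60.8 (SD, n = 3). The last 3 were within their spread of each other. In Repro_CC vha-2 was at 504 ± 21.5 CPM per kb, vha-13 at 273 ± 41.2, vha-16 at 249 ± 13.2, vha-17 at 245 ± 47.6, vha-8 at 231 ± 39.9, vha-10 at 204 ± 19.5, vha-1 at 201 ± 35.4 and vha-12 at 195 ± 51.8, where all after vha-2 were within their spread of each neighbour.

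**Figure D3:**
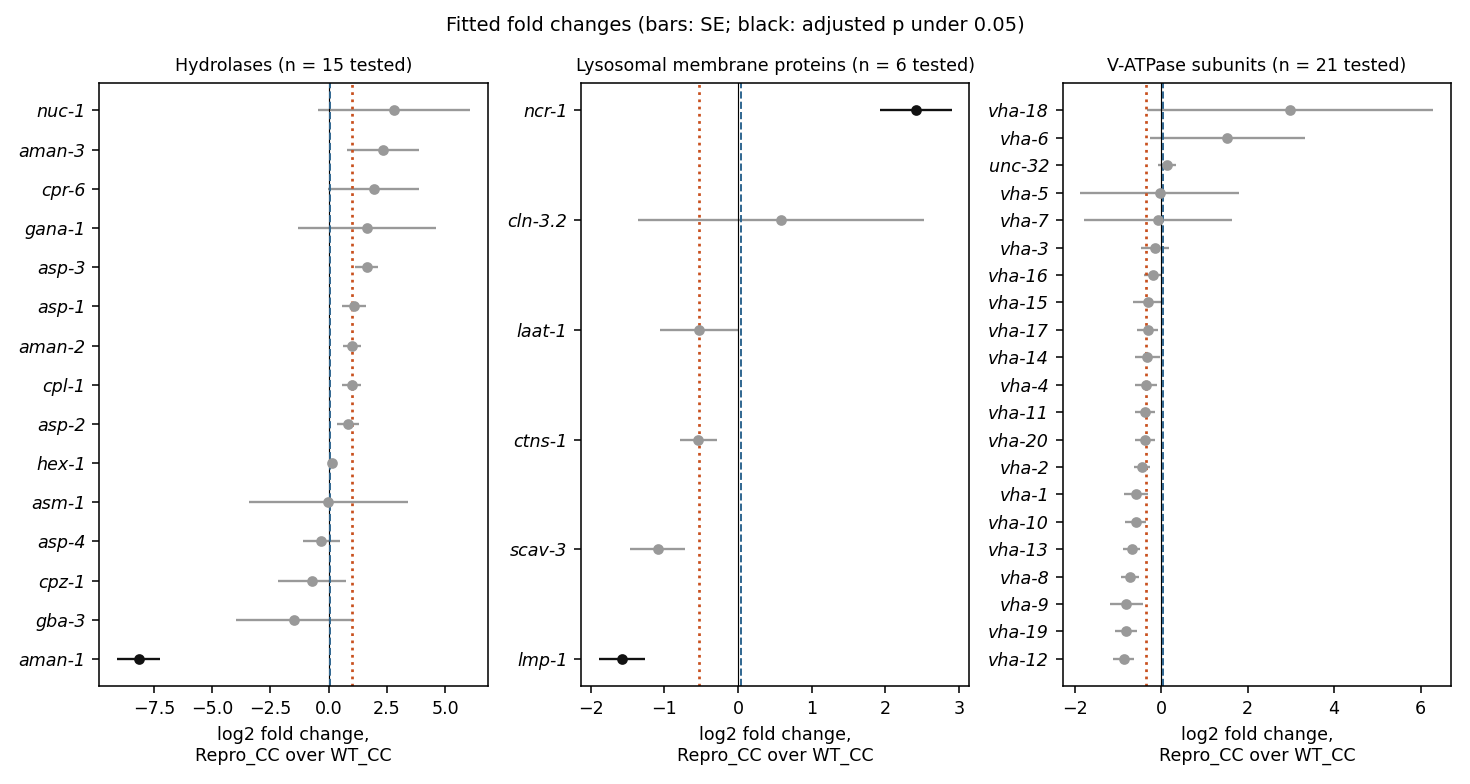
Fitted log2 fold change of Repro_CC over WT_CC for each tested hydrolase, membrane protein and V-ATPase gene, with its SE as a bar, black where the adjusted p in edgeR is under 0.05; the dashed line is the median of all tested genes (0.04) and the dotted line that of the class. Most V-ATPase genes lie between -0.87 and 0.13, while the hydrolases range from -8.16 to 2.80.

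By class, the summed hydrolase level was 3581, 3392 and 4058 CPM in Repro_CC libraries, against 9111, 6354 and 8872 CPM in WT_CC libraries. Without aman-1 it was 3573, 3384 and 4019 CPM in Repro_CC, against 2914, 2588 and 3358 CPM in WT_CC, so the difference in the sum changed direction once that gene was left out. The median log2 fold change of the 15 tested hydrolases was 0.99, and it was 0.48 without Repro_CC library 2. Of these genes 10 lay above 0 and 5 below, against 4724 and 4388 of all 9112 tested genes. Errors were wide for the low hydrolase genes aman-3, cpr-6, gba-3, gana-1, nuc-1 and asm-1, with SE of 1.55 to 3.42. The membrane protein sum was 427 to 551 CPM in Repro_CC and 681 to 739 CPM in WT_CC, and the median over the 6 tested genes was -0.53. That median was -0.28 without Repro_CC library 1 and -0.85 without WT_CC library 2. The V-ATPase sum was 3930, 4373 and 4674 CPM in Repro_CC libraries, against 5343, 5720 and 6760 CPM in WT_CC libraries, and the median of -0.36 was -0.56 without WT_CC library 2. Between libraries of the same group, the class median had an SD on the log2 scale of 0.63 for hydrolases. This SD was 0.54 for membrane proteins and 0.17 for V-ATPase genes. Relative to WT_CC, the Repro_CC mean was 0.699 times for the membrane proteins and 0.728 times for the V-ATPase, beside 0.379 times for the coelomocyte markers and 1.60 times for the muscle markers. Excretory canal markers stood at 0.364 times, at 8.11 to 37.2 CPM in Repro_CC and 34.7 to 74 CPM in WT_CC, and pharynx markers at 0.287 times, at 31.3 to 107 CPM in Repro_CC and 71.3 to 577 CPM in WT_CC. The canal water channel gene aqp-8 had at most 0.0453 CPM in Repro_CC libraries, against 10.9, 22.2 and 10.6 CPM in WT_CC libraries. It was not called (adjusted p = 0.0613 in edgeR), and the 6 tested canal markers differed in direction. The log2 fold change was below 0 for aqp-8, exc-4, pgp-12 and sulp-4, and above 0 for exc-7 (0.58) and exc-9 (0.44). The part of these marker lists in the lysosomal values was not tested. Of the muscle markers, the troponin T gene mup-2 and the tropomyosin gene lev-11 were called higher among 9 tested, with log2 fold changes of 2.63 and 1.69. The others were not called and ranged from -0.48 (tni-1) to 0.93 (unc-89).

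**Figure D4:**
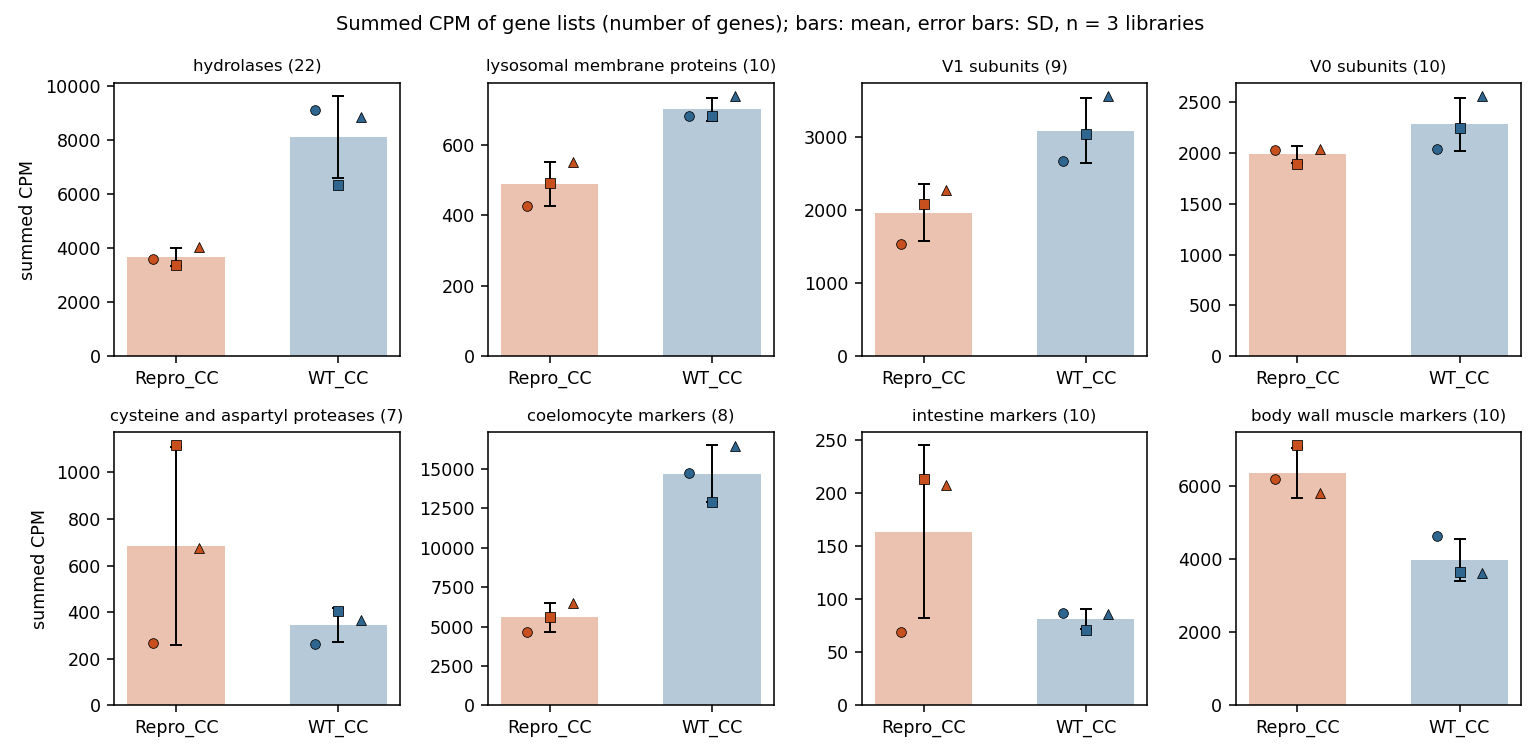
Summed CPM of 8 gene lists, with the number of genes in brackets: bars give the mean, error bars the SD of 3 libraries, and points the libraries (circle 1, square 2, triangle 3), Repro_CC left of WT_CC, on axes that start at 0. The V1 sums separate while the V0 sums overlap, and the protease and intestine marker sums are both lowest in Repro_CC library 1 within that group.

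Of 59 other lysosomal and pathway genes found in the table, 33 were tested. In edgeR 2 were called higher and 0 lower, against 3.37% and 1.69% of all tested genes. At an unadjusted p under 0.05 there were 4 higher and 0 lower, against 8.53% and 5.71%. DESeq2 called 3 higher and 0 lower, against 7.08% and 4.26% of all genes with an adjusted p. With limma-voom 2 were called higher and 0 lower, against 520 and 294 of all 9112 tested genes. The gene bgal-1, for a beta-galactosidase, had 881.5, 347.2 and 691.7 CPM in Repro_CC libraries, against 52.8, 79.0 and 58.2 CPM in WT_CC libraries, a rise of 3.34 on the log2 scale (SE 0.35, adjusted p = 0.000189 in edgeR). The gene sul-2, of the sulfatase family, had 595.0, 649.5 and 714.5 CPM in Repro_CC, against 6.54, 6.17 and 15.8 CPM in WT_CC, a rise of 6.10 (SE 0.42, adjusted p = 1.48e-05 in edgeR). Neither group pair overlapped, and both calls held in all 14 alternative settings. The third gene of DESeq2 was the lipase gene lipl-8, with 17.04, 0.286 and 15.0 CPM in Repro_CC and no count in WT_CC, and an adjusted p of 0.126 in edgeR.

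The regulators and channels on that list were not called. The gene hlh-30, the worm homologue of TFEB, which switches on lysosomal genes, had 328.4, 441.3 and 408.9 CPM in Repro_CC libraries, against 428.5, 653.5 and 475.5 CPM in WT_CC libraries (log2 fold change -0.40, SE 0.22, adjusted p = 0.535 in edgeR). The alpha-glucosidase family gene aagr-3 had 438.8, 404.8 and 494.7 CPM in Repro_CC and 679.2, 451.4 and 735.7 CPM in WT_CC. The lysosomal calcium channel gene cup-5, named for coelomocyte uptake, was low in both groups, at 8.97, 37.3 and 23.5 CPM in Repro_CC and 38.2, 11.1 and 41.0 CPM in WT_CC libraries. The groups overlapped for each of these 3 genes.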

How the data were processed

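Polyadenylated RNA of sorted coelomocytes was measured in 3 Repro_CC and 3 WT_CC libraries. The authors deposited estimated counts per gene as whole numbers; Salmon 0.13.1, DESeq2 and WBcel235 are named without roles per the submitters' processing notes, while transcript summing was not given in the sources used here. A second, normalized table was not used. Identifiers were matched by a gene name table and Ensembl's WBcel235 annotation (21714 of 21882), which gave coordinates and exon lengths.

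All genes were fitted with edgeR 4.0.16 in R 4.3.3 (TMM, filterByExpr by group with minimum count 10 and minimum total 15, robust glmQLFit, two-sided glmQLFTest, Benjamini-Hochberg). Standard errors are approximate: the absolute log2 fold change over the root of edgeR's F. Alternatives were DESeq2 1.42.0, limma-voom (limma 3.58.1), edgeR with adjusted deviances, RLE or total scaling, no filter beyond a count above 0, libraries left out and, added after the data were seen, a block for libraries with adjacent names. The fits were tested on simulated data with 200 changed genes. No 2 libraries of a group agreed within counting noise, as a library deposited again would (lowest chi-square over its degrees of freedom, 207); this does not show that they are independent.

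Members and lists were chosen with earlier results of these data known. Per-library values were given by rule for members called by edgeR or DESeq2, the 4 most abundant of each class per kilobase in WT_CC, the a subunit genes and near-identical copies (vha-2 and vha-3, by known protein identity, since no protein table was used here), and for other lysosomal genes called by edgeR. Those of other members, and hlh-30, aagr-3, cup-5, lipl-8 and single marker genes, were chosen after their values were seen.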

Additional observations from a re-analysis of the deposited data

How the results depend on the processing

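The fits differed in how many genes they called over the whole table: edgeR called 307 higher and 154 lower, edgeR without a count filter 474 and 255, DESeq2 685 and 412, limma-voom 520 higher and 294 lower, and adjusted deviances in edgeR 695 and 354. Hydrolases called higher numbered 0 in the reported fit, 3 without a count filter (aman-2, asp-1 and asp-3), 1 each with DESeq2, limma-voom and adjusted deviances (asp-3), 1 without the shallowest library of each group (asp-1), and 0 to 2 when 1 library was left out. Hydrolases called lower numbered 0 to 1 (aman-1) when 1 library was left out. Membrane proteins called higher numbered 0 without the shallowest libraries, in place of 1. V-ATPase genes called lower numbered 0 in the reported fit, 3 without a count filter (vha-13, vha-12 and vha-19), 4 each with DESeq2, limma-voom and adjusted deviances (with vha-8 added), and 0 to 2 when 1 library was left out, namely 2 without WT_CC library 1 and 1 without WT_CC library 2. Other lysosomal genes called higher numbered 2 to 4 when 1 library was left out, the 4 without Repro_CC library 1 including asp-5 and asp-6. The cause of these differences was not tested. When 1 library was left out, the median log2 fold change ranged from 0.48 to 1.00 for hydrolases, from -0.85 to -0.28 for membrane proteins and from -0.56 to -0.28 for V-ATPase genes; with library totals alone as scaling it was 1.14, -0.34 and -0.19. Among the 10 genes followed singly, no log2 fold change reversed. These genes had been called by edgeR or DESeq2 in the same data, a choice that favours a stable direction. Among other members the sign reversed in some settings for hex-1, asp-4, asm-1, cpr-6, cpz-1, cln-3.2, unc-32, vha-3, vha-5 and vha-7. The labels give the groups no shared replicate numbers, but library names run in adjacent Repro_CC and WT_CC pairs, and what they mark is not stated. Deviations from the group means correlated at 0.0726, -0.019 and 0.0482 across genes within these pairs, which is too little to treat them as paired, and the libraries of the second pair each correlated better with a library of another pair. With the pairs as a replicate block, an alternative chosen after seeing the data, edgeR called 364 genes higher and 205 lower, 0 hydrolases lower (aman-1 at an adjusted p of 0.0903) and 3 V-ATPase genes lower (vha-13, vha-12 and vha-8), with no other change among the called members. Low members such as vha-18 and gana-1 had counts of 0 beside counts far above the floor of 3 within 1 group; vha-18 had 171 counts in Repro_CC library 1, the shallowest, and 0 in library 3. The cause was not tested.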
